A study of Mus musculus with 20 samples.

Results

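The SR splicing factor genes described here are Srsf1, Srsf2, Srsf3, Srsf4, Srsf5, Srsf6, Srsf7, Srsf9, Srsf10 and Srsf11, 10 genes taken by symbol and not by a measured value. Their introns were found by matching the transcript of each tabulated intron to its gene symbol. The members were 50 introns of these 10 genes, of 68794 introns of 8392 genes in the splicing table. Of them, 20 introns also had a line in the table of splicing intermediates, of 6537 in all. The series used murine erythroleukemia (MEL) cells, an established mouse line of red cell precursors that starts to mature in dimethyl sulfoxide (DMSO). Nascent RNA was taken from chromatin and sequenced as long reads, from wild type cells with no induction and from wild type cells kept in 2% DMSO for 5 days. Both were depleted of polyadenylated and of ribosomal RNA. Each condition comprised 4 long-read samples, from 2 biological replicates run on 2 PacBio instruments. The uninduced and induced lines of the tables were assumed to come from these samples, since the runs merged into them are not given in the sources used here. The other 12 of the 20 samples, which include long reads of cells with an inserted globin gene, were not analysed on their own.

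In the tables each condition is 1 pool, so the spread between replicates is unknown for all values below, and every test compares 2 pools of libraries and not 2 conditions. The uninduced pool held 416379 observations and the induced pool 279371, where an observation is 1 read at 1 intron, so that a long read can give several. Erythroid marker genes had 159 observations per 100000 before and 2763 after induction, with reads on 8 and 10 of 10 markers. None of 5 myeloid and 3 lymphoid markers was listed. Intervals are 95% Wilson intervals for a share and Newcombe intervals for a difference of shares, and they cover counting error only.

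SR proteins bind RNA through RNA recognition motifs and contact other splicing factors through a domain rich in arginine and serine. They mark exons for the spliceosome, and many of them also act in export and translation of mRNA. Their genes are known for a shared form of self-limitation: a conserved "poison" exon, or a retained intron, carries a premature stop codon, and transcripts that include it are removed by nonsense-mediated decay (NMD). The splicing of the intron around such an exon therefore bears on how much productive mRNA each gene makes.

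Reads on the SR genes were concentrated on a few members. Srsf5 held 611 observations before and 400 after induction, Srsf7 held 281 and 181, and Srsf3 held 123 and 115. Srsf3 and Srsf7 encode small SR proteins that shuttle between nucleus and cytoplasm and act in mRNA export, and Srsf5 encodes a regulator of alternative exons. Per 100000 observations of the pool, Srsf5 had 147 before and 143 after induction, Srsf7 had 67.5 and 64.8, and Srsf3 had 29.5 and 41.2. Those values depend on how many introns a gene has and how many reads cover each, so they are no measure of expression between genes. The order of these 3 genes was the same in both pools, and no replicate check of the differences between pools exists.

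The other 7 genes were thinly covered. Srsf1, the founding member that activates splicing through exonic enhancers, had 31 observations before and 5 after induction. Srsf10, which represses splicing when it is dephosphorylated, had 25 and 29. Srsf6, an SR protein with a long arginine-serine domain, had 21 and 10, and Srsf9 had 14 and 22. Srsf11, Srsf2 and Srsf4 had 6, 2 and 1 uninduced observations and 11, 4 and 6 induced ones. Srsf2 is an SR protein that stays mostly in the nucleus.

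**Figure D1:**
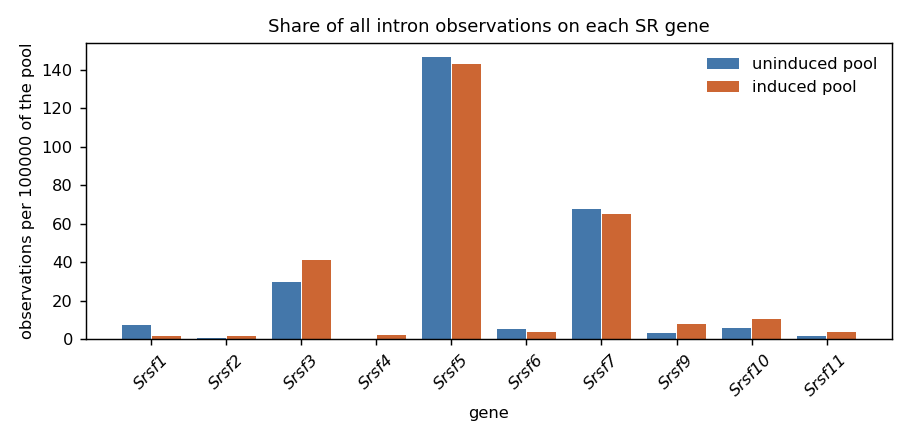
Observations at the introns of each SR gene per 100000 observations of the pool (y axis), with 1 bar per pool and no error since each condition is 1 pool. Srsf5 stands highest in both pools at 147 and 143, followed by Srsf7 at 67.5 and 64.8 and Srsf3 at 29.5 and 41.2.

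Co-transcriptional splicing efficiency (coSE), the share of reads across an intron that are spliced, could be read at 21 introns with at least 10 reads before and 20 after induction. The median coSE of these SR introns was 0.818 and 0.809, beside 0.933 and 0.947 over the 9982 and 6333 introns of all genes with that depth. A coSE under 0.5 was found at 5 of 21 and 4 of 20 SR introns, which is 23.8% and 20.0%, beside 7.26% and 6.60% of all introns. No unspliced read was seen at 2 of 21 and 1 of 20 SR introns, against 37.0% and 43.1% of all introns. At introns of hnRNP genes, described below, that share was 10.1% and 15.5%, and at the arginine-serine list below 46.3% and 32.1%. Depth differed too: 15 of the 21 SR introns, beside 3524 of all 9982, had at least 20 uninduced reads. Its part in these shares was not tested. The distance from all introns depended on depth: at a minimum of 20 reads the SR medians were 0.930 and 0.962, beside 0.952 and 0.950 for all introns. The introns lost at that minimum were, in both pools, intron 5 of Srsf3 and introns 5 to 7 of Srsf7. In the uninduced pool introns 2 and 3 of Srsf1 were lost too, and in the induced pool introns 6 and 7 of Srsf5 and intron 3 of Srsf9.

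In Srsf3, Srsf5 and Srsf7 the introns with the highest coSE lay at the 5' side of the gene, and in Srsf5 and Srsf7 all introns with a coSE under 0.5 lay further on. The splice sites of the introns with the lowest coSE in each of Srsf5 and Srsf7 are shown beside those of a well spliced intron of the same gene and of the poison exon intron of Srsf3. They are printed 5' to 3' as in the deposited table, with the first and the last pair of intron bases in capitals.
Srsf5 intron 4, 5' site: acgGTatgt
Srsf5 intron 5, 5' site: cagGTttgt
Srsf7 intron 2, 5' site: gaaGTaagt
Srsf7 intron 3, 5' site: cagGTattt
Srsf7 intron 5, 5' site: ccaGTatgt
Srsf3 intron 3, 5' site: cagGTactt
Srsf5 intron 4, 3' site: gcttatttttctttcttcAGaaa
Srsf5 intron 5, 3' site: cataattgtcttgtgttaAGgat
Srsf7 intron 2, 3' site: cattttcttatgttttgtAGagt
Srsf7 intron 3, 3' site: ttttctaacttaaaaaatAGgtc
Srsf7 intron 5, 3' site: cccctttcctttttattaAGatc
Srsf3 intron 3, 3' site: tttactgtttctgcttctAGatc

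Srsf5 showed a step between its intron 4 and its intron 5. Its tabulated transcript, ENSMUST00000094693.10 on chromosome 12, has 7 introns, all of them listed. Intron 1, in the 5' UTR, was spliced in 67 of 69 uninduced and 78 of 80 induced reads. Introns 2, 3 and 4, between coding exons, had a coSE of 0.944, 0.930 and 0.949 before induction, on 142, 142 and 136 reads. After induction it was 0.968, 0.943 and 0.973, on 93, 87 and 74 reads. At intron 5 (GRCm38 chr12:80947866-80949094, 1229 nt, between coding exons) 22 of 49 uninduced reads were spliced, a coSE of 0.449 (interval 0.319 to 0.587). In the induced pool 16 of 33 were spliced, a coSE of 0.485 (interval 0.325 to 0.648). These intervals do not overlap those of introns 1 to 4 in either pool, where the lowest lower bound was 0.872.

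Downstream of that intron the coSE of Srsf5 was intermediate. Intron 6 had a coSE of 0.775 (interval 0.625 to 0.877) on 40 uninduced and 0.611 (interval 0.386 to 0.797) on 18 induced reads. Intron 7 had 0.667 in both pools, on 33 and 15 reads. Annotation gives intron 5 to 5 of the 8 transcripts that span it and keeps it within an exon in the other 3. No annotated exon of an NMD transcript lies inside it. Intron 3 of the same gene, 114 nt long and present in 10 of 10 spanning transcripts, was among the well spliced ones.

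Srsf7 held the SR intron with the lowest coSE among those tested between pools. Its tabulated transcript, ENSMUST00000063417.10 on chromosome 17, has 7 introns, all between coding exons and all listed. Intron 1 was spliced in 75 of 77 uninduced and 49 of 50 induced reads, and intron 2 in 69 of 73 and 35 of 36. At intron 3 (chr17:80204388-80205261, 874 nt) 10 of 40 uninduced reads were spliced, a coSE of 0.250 (interval 0.142 to 0.402). After induction 11 of 33 were, a coSE of 0.333 (interval 0.198 to 0.504). The upper bounds lie below the lower bounds of introns 1 and 2, of which the lowest was 0.858. Intron 4, the shortest listed intron of these genes at 80 nt, lies next to it and had a coSE of 0.714 (interval 0.549 to 0.837) on 35 and 0.846 (interval 0.665 to 0.939) on 26 reads.

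Intron 3 of Srsf7 holds a poison exon of 460 nt (chr17:80204622-80205081, minus strand), annotated in 1 NMD transcript of the 7 transcripts that span the intron. In 2 of those 7 the intron is retained, and 4 splice it as tabulated. Further along, intron 5 (chr17:80202745-80204121, 1377 nt) had 8 of 19 uninduced reads spliced, a coSE of 0.421 (interval 0.231 to 0.637). After induction 4 of 11 were, a coSE of 0.364 (interval 0.152 to 0.646). Annotation gives that intron to 2 of 7 spanning transcripts, while the other 5 use the same 3' site with another 5' site. Introns 6 and 7 had a coSE of 0.789 and 0.833 on 19 and 18 uninduced reads and of 0.818 and 0.643 on 11 and 14 induced reads.

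In Srsf3 the lowest coSE before induction was likewise at the intron with a poison exon. Its tabulated transcript, ENSMUST00000130216.2 on chromosome 17, has 5 introns. Intron 1, in the 5' UTR, was spliced in all 31 uninduced and all 22 induced reads, depths at which no unspliced read allows an unspliced share of up to 9.68% and 13.6%. Intron 2 was spliced in 30 of 30 and 25 of 26 reads. Intron 3 (chr17:29038625-29040774, 2150 nt, between coding exons) had 15 of 21 uninduced reads spliced, a coSE of 0.714 (interval 0.500 to 0.862). After induction 19 of 24 were, a coSE of 0.792 (interval 0.595 to 0.908). In the induced pool intron 5 was lower, at 14 of 18 reads. Introns 4 and 5 had a coSE of 0.818 and 0.895 before and of 0.800 and 0.778 after induction, and their intervals overlap that of intron 3.

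Intron 3 of Srsf3 holds a poison exon of 456 nt (chr17:29039454-29039909, plus strand). Among the 4 transcripts that span the intron, 2 splice it as tabulated, 1 retains it and 1 includes the exon. The stretches of the poison exons of Srsf3 and Srsf7 from their first base to the stop codon are printed from the GENCODE release 21 transcripts, 5' to 3' on the strand of the gene, since they show how soon each exon ends the reading frame. The stop codon is in capitals.
Srsf3 poison exon, chr17:29039454-29039487: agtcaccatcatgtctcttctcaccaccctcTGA
Srsf7 poison exon, chr17:80205054-80205081: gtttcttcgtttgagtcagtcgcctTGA
The annotated frame stops within 34 bases of the start of the exon in Srsf3 and within 28 bases in Srsf7.

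**Figure D2:**
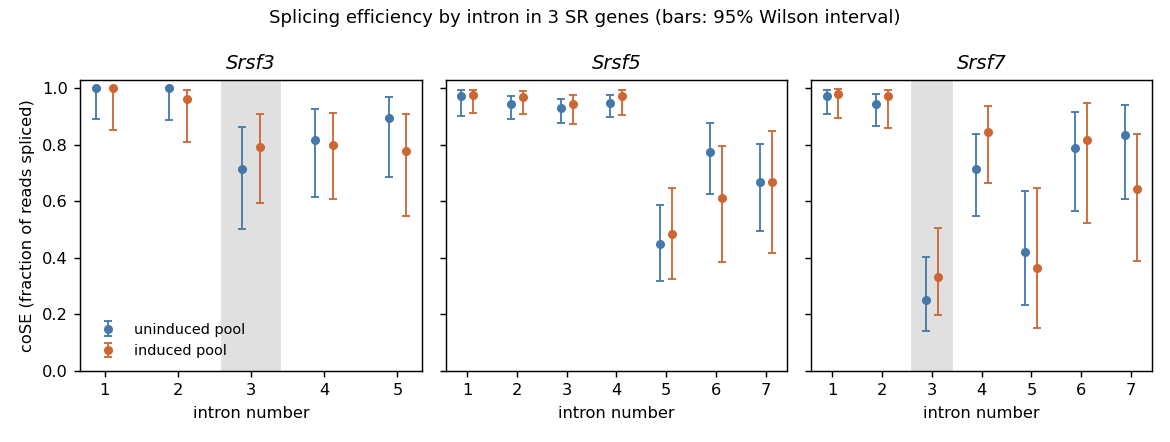
coSE of each intron of Srsf3, Srsf5 and Srsf7 (y axis, fraction of reads spliced) against the intron's number from the 5' end, with points for the 2 pools and bars for 95% Wilson intervals. Grey bands mark introns that hold an exon of an annotated NMD transcript. The lowest points are Srsf7 intron 3 at 0.250 and 0.333 and Srsf7 intron 5 at 0.421 and 0.364, followed by Srsf5 intron 5 at 0.449 and 0.485.

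Across all 10 genes, 8 listed introns of 7 genes hold at least 1 internal exon of an annotated NMD transcript, with 12 distinct exons of 90 to 460 nt. They are intron 2 of Srsf2, intron 3 of Srsf3, intron 1 of Srsf4, intron 2 of Srsf6, intron 3 of Srsf7, introns 1 and 2 of Srsf9 and intron 2 of Srsf11. The annotated reading frame ends inside 7 of the 12 exons. It does not end inside the exon held by intron 2 of Srsf2 or by intron 2 of Srsf9. There the name poison exon rests on the NMD transcript alone. As all 12 exons lie inside tabulated introns, the tabulated transcripts skip them. How a read that includes a poison exon was counted is not given in the sources used here.

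Introns with a poison exon had a lower summed coSE than the other listed SR introns, on the few reads they had. At least 10 reads were present at 2 of the 8, in Srsf7 and Srsf3, with 25 of 61 uninduced reads spliced, a coSE of 0.410, and 30 of 57 induced reads, a coSE of 0.526. The other SR introns of that depth, 19 and 18 in number, had 843 of 984 and 573 of 650 reads spliced, a coSE of 0.857 and 0.882. Most of that distance came from Srsf7, since Srsf3 intron 3 by itself was at 0.714 and 0.792. Of the 984 and 650 reads at the other introns, 611 and 400 were at Srsf5, where no intron holds such an exon. At that depth a coSE under 0.5 was also found without a poison exon. In the uninduced pool these were introns 2 and 3 of Srsf1, intron 5 of Srsf5 and intron 5 of Srsf7. In the induced pool they were intron 5 of Srsf5, intron 5 of Srsf7 and intron 3 of Srsf9. No test was made, because introns of a gene share reads and are not replicates. Below the minimum, Srsf9 intron 2 (chr5:115330659-115332116), whose exon does not hold the annotated stop, was spliced in 2 of 5 uninduced and 4 of 9 induced reads. The remaining 5 introns had at most 4 reads in either pool.

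Srsf1 was the SR gene with the lowest coSE in the uninduced pool. Its tabulated transcript, on chromosome 11, has 3 introns. Intron 2 (chr11:88048675-88049042, within the coding part) had 1 of 11 uninduced reads spliced, a coSE of 0.0909 (interval 0.0162 to 0.377), and had no induced read. Intron 3 (chr11:88049216-88049411, within the coding part) had 2 of 19 uninduced reads spliced, a coSE of 0.105 (interval 0.0294 to 0.314), and 3 of 5 induced reads. With 5 induced reads it lay below the minimum for the test. Its difference of 0.495 had an interval from 0.0706 to 0.787 and an unadjusted p of 0.0425 by Fisher's exact test, and with a minimum of 1 read it did not pass after adjustment. Intron 2 is in 5 of 5 annotated spanning transcripts and intron 3 in 2 of 5, and neither holds an NMD exon.

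Of the remaining genes, 1 intron had at least 10 reads. Intron 3 of Srsf9 (chr5:115332290-115332575), in 5 of 5 spanning transcripts, was spliced in 3 of 9 uninduced and 5 of 11 induced reads. Srsf10 intron 2 (chr4:135858410-135861773), which holds an exon of a noncoding transcript, was spliced in 0 of 3 and 0 of 6 reads, and 0 of 6 allows a spliced share of up to 50.0%. Srsf10 intron 1, upstream of it, was spliced in 4 of 5 and 9 of 9 reads, and intron 3 in 4 of 8 and 4 of 8. Srsf6 introns 3, 4 and 5 were spliced in 5 of 7, 6 of 8 and 6 of 6 uninduced reads, and in the induced pool all 5, 2 and 1 reads were spliced. Srsf2, Srsf4 and Srsf11 had at most 4 reads at any intron, which gives no usable coSE.

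The coSE of no SR intron differed between the pools past the threshold. By Fisher's exact test with Benjamini-Hochberg adjustment over all 4403 introns with at least 10 reads in both pools, 0 of 19 SR introns passed at 0.05, beside 71 of all introns, a background of 1.61%. At that background less than 1 call is what 19 introns would give, so the count of 0 is no result about the SR genes. None of these 19 had an unadjusted p under 0.05 by Fisher's exact test, beside 351 of the 4403 introns, and none had by the chi-square test. At that share 19 introns would give few, so this count of 0 is no result about the SR genes either. The smallest unadjusted p of the 19 by Fisher's exact test was 0.219, at Srsf5 intron 6. Of all introns, 1.25% passed as lower and 0.363% as higher in the induced pool. Without regard to the threshold, coSE was higher after induction at 11 SR introns, lower at 6 and equal at 2, with a median difference of 0.00597, beside 1879 higher, 1534 lower and 990 equal and a median of 0 over all introns tested.

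The intervals of the differences show what these depths could have missed. At Srsf5 intron 5 the difference, induced minus uninduced, was 0.0359 with an interval from -0.175 to 0.245. At Srsf7 intron 3 it was 0.0833 with an interval from -0.120 to 0.285, and at Srsf3 intron 3 it was 0.0774 with an interval from -0.168 to 0.321. Among the 19 introns tested, the largest differences were 0.132 at Srsf7 intron 4 (interval -0.0870 to 0.321) and -0.190 at Srsf7 intron 7 (interval -0.468 to 0.107). At the best covered introns the limits were narrower: Srsf5 intron 2 differed by 0.0241 with an interval from -0.0404 to 0.0792. Across the 19 introns, the order of coSE was alike in both pools, with a Spearman's rho of 0.886, given as a description since introns of 3 genes share reads.

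The number of reads also differed along the genes, and not always in step with coSE. In Srsf5 the number of reads was 136 at intron 4 and 49 at intron 5 in the uninduced pool, a ratio of 0.360, and 74 and 33 in the induced pool, a ratio of 0.446. This comparison of neighbouring introns was chosen after the data had been seen. Over all pairs with at least 30 reads at the upstream one, the median ratio was 0.907 in both pools, and it was under 0.5 in 5.95% of 1646 uninduced and 5.57% of 934 induced pairs. In Srsf7 the ratio was 0.548 between introns 2 and 3 and 0.543 between introns 4 and 5 in the uninduced pool, and 0.917 between introns 2 and 3 in the induced pool, where coSE went from 0.972 to 0.333. In Srsf7 introns 5, 6 and 7 had 19, 19 and 18 uninduced reads at a coSE of 0.421, 0.789 and 0.833. In Srsf3 the induced reads numbered 22, 26, 24, 25 and 18 from intron 1 to intron 5. The uninduced reads numbered 31, 30, 21, 22 and 19, with a ratio of 0.700 between introns 2 and 3, where coSE went from 1 to 0.714. Srsf5 intron 1, with 69 uninduced reads beside 142 at intron 2, went the other way, and 4 of 11 transcripts that span it use another 5' site. Reads that end inside the gene, or that are spliced in another way than tabulated, are not listed in the table, and their part in these ratios was not tested.

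**Figure D3:**
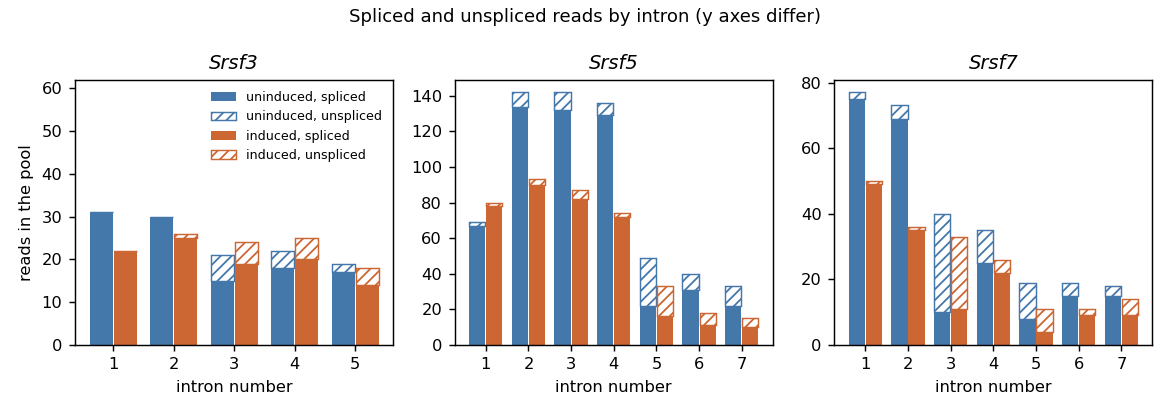
Number of spliced (filled) and unspliced (hatched) reads at each intron of Srsf3, Srsf5 and Srsf7, by pool, with the intron's number on the x axis and a y axis of its own for each gene. In Srsf5 the total is 136 reads at intron 4 and 49 at intron 5 in the uninduced pool, and in Srsf7 most reads at intron 3 are unspliced in both pools.

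Splicing intermediates, taken here as RNA after the first step of splicing, with the upstream exon free and the exons still unjoined, were then examined at the SR introns. Their share among intermediates plus spliced reads is called NIC, and how the authors recognised an intermediate is not stated. Before induction 16 of 20 SR introns, 80.0%, had a NIC above 0, beside 36.2% of all 5568 introns. After induction 11 of 16 had, 68.8%, beside 37.8% of 3008. At hnRNP introns the shares were 45.8% of 48 and 68.3% of 41. Depth differed, since the 20 SR introns held 742 spliced reads and all 5568 introns held 153445 before induction, which is more per intron at the SR genes, and its part in these shares was not tested. With reads added together, intermediates made up 6.43% (51 beside 742 spliced reads) and 8.09% (44 beside 500) at SR introns, beside 2.71% and 4.35% over all introns.

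Much of the summed share, though not of the number of introns with a NIC above 0, came from 1 intron. Srsf5 intron 5 had 21 intermediates beside 17 spliced reads in the uninduced pool, a NIC of 0.553 (interval 0.397 to 0.699). In the induced pool it had 26 beside 15, a NIC of 0.634 (interval 0.481 to 0.764). More intermediates were counted at 6 of 5568 introns in the uninduced and at 8 of 3008 in the induced pool. A NIC of at least 0.5 was found at 1.08% and 1.06% of all introns. Without this intron, intermediates at the SR introns made up 3.97% and 3.58%, beside 2.71% and 4.35% over all introns. The SR share was then higher than that of all introns before induction and lower after it. Without it the mean NIC was 0.0954 and 0.0884, beside 0.0431 and 0.0440 over all introns. The intron is the same one at which coSE was 0.449 and 0.485, and the spliced reads enter both ratios.

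The other introns of Srsf5 had at most 3 intermediates each in either pool. Introns 1 to 4 had a NIC of at most 0.0286 in either pool, on 59 to 129 reads. Intron 6 had 3 intermediates among 28 uninduced and 3 among 7 induced reads, a NIC of 0.107 and 0.429, and intron 7 had 2 among 20 uninduced reads. These downstream values rest on fewer spliced reads than those of introns 1 to 4. In the induced pool intron 7 had no line in the table of intermediates.

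In Srsf7 the intron with the poison exon had the highest NIC of the gene before induction. Intron 3 had 5 intermediates among 9 reads, a NIC of 0.556 (interval 0.267 to 0.811). In the induced pool it had 1 among 9, a NIC of 0.111 (interval 0.0199 to 0.435). Intron 1 had 0 among 67 and 0 among 43 reads, which allows a share of up to 4.48% and 6.98%. Intron 2 had 4 among 67 and 2 among 33, and intron 4 had 1 among 18 and 4 among 23. Intron 5, at 1 among 8 and 1 among 4, was too thinly covered to place, while introns 6 and 7 each had 2 among 12 uninduced reads.

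In Srsf3 the poison exon intron had 2 intermediates among 10 uninduced reads and 0 among 11 induced reads, which allows up to 27.3%. Intron 4 had 2 among 11 and 2 among 19. Intron 1 had none among 22 and 21 reads, and intron 2 had 1 among 22 and none among 22. The single line for Srsf1, at intron 3, held 1 spliced read and no intermediate.

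The change of NIC was tested by Fisher's exact test with Benjamini-Hochberg adjustment over all 2039 introns with a line in both pools. None of 16 SR introns passed at 0.05, beside 2 of all introns, a background of 0.0981%. No SR intron had an unadjusted p under 0.05 by that test, beside 34 of the 2039, and at either share 16 introns would give less than 1, so these counts of 0 are no result about the SR genes. The smallest unadjusted p was 0.0792, at Srsf5 intron 6, where the difference was 0.321 with an interval from 0.00480 to 0.650. At Srsf7 intron 3 the difference was -0.444 with an interval from -0.716 to -0.0104 and a p of 0.131 by Fisher's exact test. By the chi-square test these 2 introns had an unadjusted p of 0.0436 and 0.0455, and none passed after adjustment. At Srsf5 intron 5 the difference was 0.0815 with an interval from -0.130 to 0.284.

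**Figure D4:**
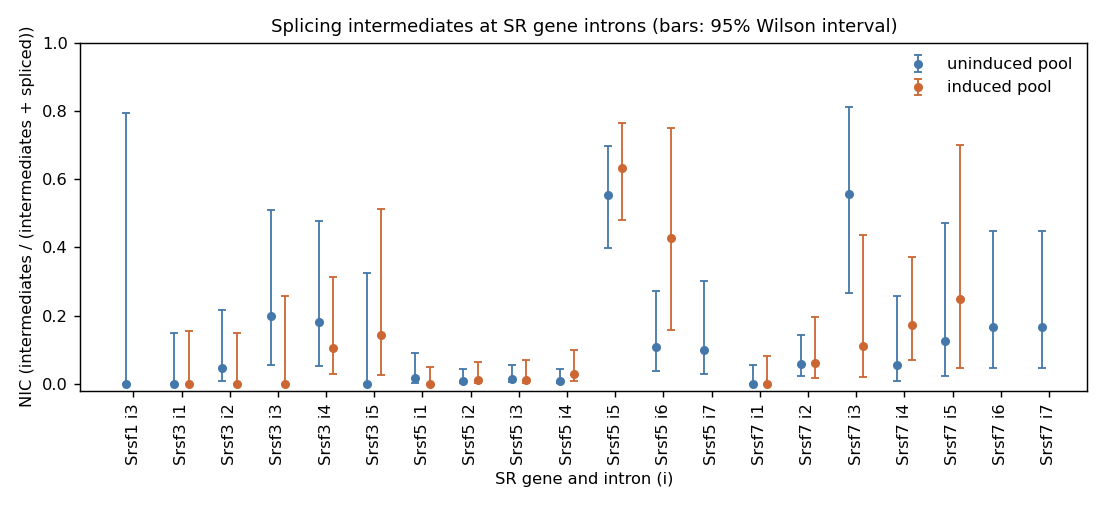
NIC of the 20 SR introns listed in the table of intermediates (y axis, fraction), by gene and intron number, with points for the 2 pools and bars for 95% Wilson intervals. Srsf5 intron 5 is high in both pools at 0.553 and 0.634, Srsf7 intron 3 is at 0.556 before and 0.111 after induction, and Srsf5 introns 1 to 4 lie close to 0.

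The splice sites differed between these introns in their deposited scores, higher scores being given to sites closer to the usual sequence. Over the 20 SR introns the median score was 9.25 at the 5' and 7.88 at the 3' site, beside 8.78 and 8.70 over all 6537 introns. The 5' site of Srsf7 intron 5 had the lowest score of the SR introns, 5.80, and 10.8% of all introns scored lower. Srsf5 intron 5 scored 7.44 at the 5' site and 5.65 at the 3' site, with 25.1% and 11.8% of all introns lower. Srsf7 intron 3 scored 7.51 and 6.36, with 26.1% and 17.7% lower. Srsf3 intron 3 scored 8.17 at the 5' site and 10.60 at the 3' site, where 79.4% were lower.

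Several well spliced introns of the same genes had higher 5' scores. Srsf5 introns 2, 3 and 4 scored 10.36, 10.22 and 9.94, and Srsf7 introns 1 and 2 scored 9.85 and 9.82. Other introns did not follow that order. Srsf5 intron 7 scored 7.04, lower than intron 5 of that gene, at a coSE of 0.667 in both pools. Srsf7 intron 4 scored 7.66, close to intron 3, at a coSE of 0.714 and 0.846. Srsf5 intron 1 and Srsf3 intron 2 were well spliced at 5' scores of 8.83 and 8.99. Srsf5 intron 6, Srsf3 intron 5, Srsf7 introns 6 and 7 and Srsf1 intron 3 scored 9.04, 9.66, 9.46, 10.22 and 9.65 at an uninduced coSE of 0.775, 0.895, 0.789, 0.833 and 0.105. Across the 20 uninduced and 19 induced SR introns with a score and at least 10 reads, Spearman's rho between coSE and the 5' score was 0.662 and 0.633, beside 0.0468 and 0.0583 over all introns. With the 3' score it was 0.320 and 0.112, with the intron's number -0.462 and -0.659, and with the GC content of the intron 0.566 and 0.632. Over all introns the 3' score was at 0.112 and 0.0822, the intron's number at -0.150 and -0.145, and GC content at -0.0928 and -0.128. These are descriptions of introns that share genes and reads, and score, position and GC content were not separated.

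Length was described in the same way, without a test of SR against all introns. Spearman's rho between coSE and length was 0.250 and 0.119 at SR introns, beside 0.372 and 0.383 over all introns, and the SR introns had a median length of 486 and 526 nt beside 1056.5 and 937 nt. The introns of Srsf5 and Srsf7 with a coSE under 0.5 were 874 to 1377 nt long, but Srsf5 intron 1 and Srsf7 intron 1, among the best spliced, were 903 and 1146 nt long.

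Other genes around the SR proteins were summarised from lists. The hnRNP genes, 23 listed of 25, encode RNA-binding proteins that often oppose SR proteins. Their median coSE was 0.818 on 79 introns before and 0.789 on 58 introns after induction, and 16.5% and 29.3% of those introns had a coSE under 0.5. Kinases, phosphatase subunits and the import factor of SR proteins, 10 listed of 11, had a median coSE of 0.833 on 31 and 0.785 on 18 introns. Other genes with arginine-serine repeats or partners in exon definition, 30 listed of 31, had 0.979 on 82 and 0.948 on 53, and NMD factors, 13 listed of 17, had 0.636 on 13 and 0.636 on 17. In the test between pools 0 of 47 hnRNP introns, 0 of 16 introns of the kinase list, 0 of 49 of the arginine-serine list and 1 of 10 NMD factor introns passed. An unadjusted p under 0.05 was found at 3, 0, 3 and 2 of them, beside the 351 of all 4403 introns, and the call was a rise, against a background of 0.363% for rises. Intermediates made up 6.38% and 8.75% at hnRNP introns, 9.28% and 4.48% at introns of the kinase list, 4.01% and 2.74% at those of the arginine-serine list and 9.09% and 6.82% at those of NMD factors. The SR introns had 6.43% and 8.09%, or 3.97% and 3.58% without Srsf5 intron 5, and differences between lists were not tested.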

How the data were processed

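Long-read sequencing of nascent RNA was analysed from 2 tables of the authors with 1 line per intron and condition. Spliced, unspliced and intermediate reads are raw counts per the file headers. NIC is a deposited fraction, equal to intermediates over intermediates plus spliced reads in 100% of lines within 1e-06. The deposited GC content is a percent, taken as that of the intron, and the deposited splice site score has no stated program. Per the submitters' processing notes, cutadapt, minimap2, SAMtools, bedtools and Bowtie and the builds mm10 and dm3 were used, with no role given. The counting rule, the filters and the runs pooled are not given in the sources used here. For the SR genes, the spliced count of the intermediate table was below that of the splicing table in 36 of 36 lines.

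Introns were matched to GENCODE mouse release 21 (GRCm38) after a shift of 2 at the start and of 1, downward, at the end. They fell on introns of their transcript in 99.96% of cases. A poison exon was taken as an internal exon of an NMD transcript inside a tabulated intron. Fisher's exact tests (two-sided, scipy 1.17.1, Python 3.11.15) were adjusted over all introns tested, at a minimum of 10 reads for coSE, and were tested on simulated data. A count of 0 was taken to allow 3 counts. PCR without stated molecular identifiers means that intervals cover counting error only. Named were all 10 genes, and introns past a threshold, with the lowest or highest coSE of a gene, with a poison exon, or with the most intermediates. Members and lists were chosen with earlier results of these data known. A likeness of pattern to other genes was not computed, since 2 pools were compared.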

Additional observations from a re-analysis of the deposited data

How the results depend on the processing

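No paired analysis was possible because the libraries of a condition were merged into a single line for each intron, and neither a replicate block nor leaving out a replicate could be run. No SR intron passed the coSE or the NIC test under the alternatives run, with 5 to 33 and 9 to 16 SR introns tested. The number of all introns past the coSE threshold was 36 of 42074 at a minimum of 1 read and 31 of 2806 among introns that every spanning transcript of the annotation uses, against 71 of 4403. The median coSE of the SR introns was 0.930 and 0.962 at a minimum of 20 reads, in the uninduced and the induced pool. As a mean over introns in place of summed reads, coSE was 0.812 and 0.803 for Srsf5, against 0.879 and 0.898, and 0.704 for Srsf7 in the uninduced pool, against 0.772. Without the introns that hold an NMD or noncoding exon it was 0.859 and 0.865 for Srsf7, against 0.772 and 0.768, and 1 for Srsf6 in the induced pool, against 0.900 on 10 observations. Intermediates at SR introns made up 4.70% of intermediates plus all uninduced reads of the splicing table, and 11.8% and 12.2% as means of NIC, against 6.43% and 8.09%. The share of neighbouring introns with a ratio under 0.5 was 4.42% in the uninduced pool at a minimum of 50 reads, against 5.95% at 30, in a comparison added as a whole after the data had been seen. The other 55 of 69 values stayed within their counting interval or within 1.5 times the count, which is a weak check. Intervals of summed reads treat each observation as independent, though 1 read can cover several introns. Some settings could hardly move a value: without globin introns the uninduced share of Srsf5 was 146.9 per 100000, against 146.7. Others left the same reads in place, as for Srsf6 in the uninduced pool at 0.810. Depth limits the comparison between pools: at Srsf5 intron 5, on 49 and 33 reads, the interval of the coSE difference ran from -0.175 to 0.245.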
